A study of Mus musculus with 8 samples.

Results

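The mRNA of 10 genes that build H3K9 heterochromatin was followed in mouse ESCs leaving serum for 2i: Atf7ip and Setdb1, Trim28, the HUSH genes Mphosph8, Fam208a, and Pphln1, the methyltransferases Suv39h1 and Suv39h2, and the HP1 genes Cbx5 and Cbx3. They are 10 of the 37263 Ensembl identifiers in the count files and were picked by symbol. Atf7ip was included because it had already stood out among the genes that differ with vitC in these libraries, whereas the other 9 were included for what they do. All libraries came from E14, a feeder-free ESC line of the 129/Ola strain, kept with LIF. Serum medium was replaced by serum-free 2i, which holds the MEK inhibitor PD0325901 and the GSK3 inhibitor CHIR99021, and cells were taken after 4, 16, 24, and 32 hr without vitC or with 17 µM vitC. Each of the 8 combinations was 1 library, so that no difference between single libraries has a replicate check, and no serum library was analysed here.

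Methylation of histone H3 at lysine 9 marks silent chromatin. SETDB1 writes H3K9me3 over retroelements and germline genes in ESCs, where TRIM28 (KAP1), recruited by KRAB zinc finger proteins, brings it to its targets, and ATF7IP binds SETDB1 and protects it in the nucleus. The HUSH complex of MPP8, TASOR, and periphilin (the products of Mphosph8, Fam208a, and Pphln1) reads H3K9me3 and recruits further SETDB1. SUV39H1 and SUV39H2 write the mark at pericentromeric satellites, and the HP1 proteins bind it, HP1alpha being encoded by Cbx5 and HP1gamma by Cbx3. vitC is a cofactor of the TET enzymes and of the JmjC demethylases, some of which remove H3K9 methylation.

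The libraries held 4753528 to 18434932 counts, with 12940716 to 18434932 in 2i and 4753528 to 13157570 with vitC. Lane 8 carried both treatments at 4 and 24 hr, and lane 7 both at 16 and 32 hr. All 9 ESC markers examined were above 1 CPM (the read count relative to the library total, scaled with edgeR's TMM factors) in each library, and their summed level was 2113 to 2368 CPM in 2i and 1878 to 2387 CPM with vitC. Summed levels of 5 fibroblast markers were 113 to 359 CPM in 2i and 94.1 to 665 CPM with vitC, carried by Col1a1 and Col1a2, while Lum stayed under 1 CPM and no marker was at 0 in all libraries. For 5 primitive endoderm markers the sums were 12.7 to 24.5 CPM and 9.70 to 33.2 CPM, with none at 0 in all libraries. Lars2 and a pair of features that vary with it took 0.028%, 0.21%, 5.92%, and 0.56% of the counts in 2i at 4, 16, 24, and 32 hr, and 0.011%, 7.11%, 6.37%, and 4.21% with vitC.

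The sequence before the start of Atf7ip is shown beside that of its partner Setdb1, since the study sorted promoters by CpG density and these genes differ in it. Both are the 250 bases upstream of the RefSeq transcript start in GRCm38.p6, at chr6:136518601-136518850 on the plus strand for Atf7ip and at chr3:95357203-95357452 on the minus strand for Setdb1, read 5′ to 3′ with each CG in capitals.
Atf7ip: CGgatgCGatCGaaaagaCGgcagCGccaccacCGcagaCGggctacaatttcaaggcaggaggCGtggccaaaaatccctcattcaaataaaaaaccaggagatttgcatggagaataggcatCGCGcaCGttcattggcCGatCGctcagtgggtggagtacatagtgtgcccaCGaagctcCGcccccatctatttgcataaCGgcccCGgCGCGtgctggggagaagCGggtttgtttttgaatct
Setdb1: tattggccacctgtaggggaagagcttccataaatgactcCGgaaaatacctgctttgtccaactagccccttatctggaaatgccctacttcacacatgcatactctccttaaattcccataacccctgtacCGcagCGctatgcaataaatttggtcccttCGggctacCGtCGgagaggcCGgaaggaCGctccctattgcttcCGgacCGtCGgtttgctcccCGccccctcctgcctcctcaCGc

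These stretches hold 20 CG for Atf7ip and 13 for Setdb1. CG reads the same on both strands, and no other motif was searched. In the full RefSeq window of 300 bases, which runs 50 bases past the start, Atf7ip has 29 CG, and 12.9% of the 32851 promoters in the table have at least as many. Setdb1 has 15, a count that 34.6% of promoters reach or exceed. All 10 genes were matched, Fam208a under its newer symbol Tasor, in 14 windows with 8 to 53 CG, against a median of 7 over all promoters. More CG than in Atf7ip were found for Pphln1 (53 and 52), Suv39h1 (37), Cbx3 (34 and 32), Suv39h2 (33), and Fam208a (32). One window of Cbx5 has as many. Fewer were found for Mphosph8 (28), Trim28 (23), Setdb1, and the other windows of Suv39h1 (15) and Cbx5 (8). Methylation of these windows was not analysed here, and the CG counts are a description of the sequence.

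Per length, the 10 mRNAs spanned a wide range. RPKM was computed here from the scaled CPM and the merged exon length in GENCODE M21, and is given as the median over the 8 libraries with the lowest and highest library. Trim28 was the most abundant, at 269 RPKM (220 to 451), followed by Cbx5 at 165 RPKM (142 to 182). Mphosph8 was at 29.0 RPKM (20.9 to 40.4), Setdb1 at 25.1 (22.1 to 28.4), Pphln1 at 18.9 (13.8 to 24.7), Suv39h2 at 16.4 (15.5 to 18.5), and Fam208a at 15.0 (12.1 to 17.8). Each of these 5 overlapped its neighbour in the order. Suv39h1 was at 8.94 RPKM (6.78 to 11.4), Cbx3 at 2.57 RPKM (1.75 to 2.76), and Atf7ip was the lowest at 1.43 RPKM (0.745 to 3.50). The ranges of Trim28 and Cbx5, of Cbx5 and Mphosph8, of Fam208a and Suv39h1, and of Suv39h1 and Cbx3 did not overlap, whereas those of Cbx3 and Atf7ip did. In 2i Atf7ip was below Cbx3 at all 4 times, and with vitC it was above Cbx3 at 16, 24, and 32 hr. With the longest transcript as length, Fam208a moved from rank 7 to rank 5 and the other ranks changed by at most 1.

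Across all 8 libraries the highest Atf7ip level was 4.69 times the lowest in CPM, a spread that holds the vitC difference for which the gene was picked. Within a treatment other members varied as much or more. In 2i the highest library was 1.48 times the lowest for Atf7ip, against 1.75 for Pphln1, 1.70 for Trim28, and 1.53 for Mphosph8. With vitC it was 1.98 times for Atf7ip, against 2.05 for Trim28 and 1.93 for Mphosph8. Suv39h2 varied little in both, 1.10 and 1.19 times.

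**Figure D1:**
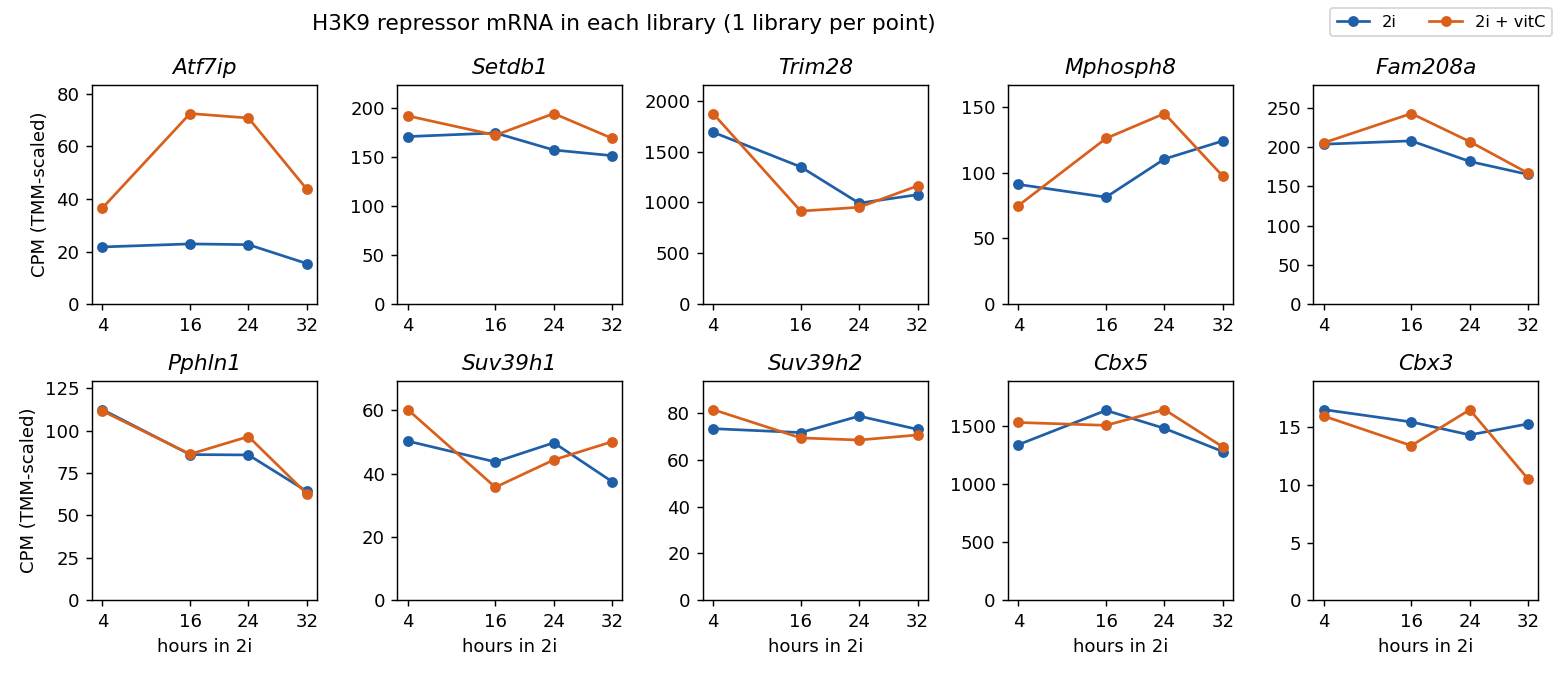
Level of each gene in CPM (linear axis from 0, a separate scale for each gene) against hours in 2i, with 1 point per library, blue without vitC and orange with vitC. The vitC libraries of Atf7ip, from 36.6 to 72.5 CPM, lie above all of its 2i libraries, from 15.4 to 22.9 CPM, while the ranges of the other 9 genes overlap between the treatments.

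ATF7IP is the partner that keeps SETDB1 stable and active. In 2i Atf7ip (ENSMUSG00000030213) was at 21.8, 22.9, 22.6, and 15.4 CPM at 4, 16, 24, and 32 hr, from 374, 436, 289, and 208 counts. With vitC it was at 36.6, 72.5, 70.8, and 43.7 CPM at the same times, from 490, 503, 330, and 524 counts. All vitC libraries were above all 2i libraries, and the 2i libraries were level until 24 hr and lower at 32 hr, whereas the vitC libraries peaked at 16 and 24 hr.

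The vitC ratio of Atf7ip was 1.68-fold after 4 hr and 3.16-fold after 16 hr, and then 3.13-fold and 2.83-fold after 24 and 32 hr. As log2 ratios (prior count 2) with 95% intervals, exact binomial and for counting error only, these were 0.74 (0.55 to 0.95), 1.65 (1.47 to 1.85), 1.64 (1.41 to 1.88), and 1.49 (1.27 to 1.74). The interval at 4 hr lay below those of the later times, which overlapped each other. From 4 to 16 hr Atf7ip rose by a log2 ratio of 0.98 (0.80 to 1.17) with vitC, against 0.07 (-0.13 to 0.28) in 2i. Between 16 and 32 hr, on the same lane, the ratio was -0.73 (-0.91 to -0.55) with vitC and -0.57 (-0.82 to -0.33) in 2i.

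In an additive edgeR fit (quasi-likelihood) with a term for treatment and one for each time, the vitC log2 fold change of Atf7ip was 1.39 (SE 0.16). This contrast is the one that drew Atf7ip into the set, so its values are a description and carry no test. Of the 14931 genes tested (at least 1 CPM in at least 2 libraries), 25, or 0.167%, passed an adjusted p-value of 0.05 for vitC in either direction (Benjamini-Hochberg), 0.107% as higher and 0.0603% as lower, and Atf7ip was the 1 member among them. It was called in 11 of 13 alternatives, and not without the 32 hr pair or without the time block, where 0 genes were called (1760 and 739 at an unadjusted p-value under 0.05, edgeR). The alternatives reuse the libraries that drew Atf7ip in, so these calls are a description too and do not test it. All vitC libraries were above all 2i libraries for 1.34% of the genes tested and below them for 1.13%. Within lane 8 the mean log2 ratio of Atf7ip was 1.19, and within lane 7 it was 1.57. With GC content and length regressed out the fitted value was 1.22, and without the 4 hr pair it was 1.61.

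The share of counts on Lars2 and its companions was higher with vitC at 16, 24, and 32 hr. The Atf7ip ratio was smallest in the 4 hr pair, at 1.68-fold, where both shares were under 0.03%. In the 2i library at 24 hr, where the share was 5.92%, Atf7ip was at 22.6 CPM. The fibroblast marker sum was also highest in a vitC library. The fitted vitC log2 fold changes of the 4 fibroblast markers tested ran from -0.33 for Thy1 to 0.75 for Col1a1. Neither the part of this sum in the difference nor that of the Lars2 share was tested. An increase of the vitC ratio with hours was estimated at 0.027 log2 units per hour (SE 0.014) and did not pass (adjusted p = 1.00, unadjusted p = 0.077, edgeR, 2 residual degrees of freedom). In that test 0 genes passed in edgeR (0% of those tested), 431 had an unadjusted p-value under 0.05, and DESeq2 called 1 gene, which was not a member.

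An antisense lncRNA, Gm44140, overlaps exons of Atf7ip in GENCODE M21. The kit does not mark strand, so reads from the pair cannot be told apart in the Atf7ip count, and no identifier of Gm44140 was found in the files. Among the annotated neighbours, Plbd1, a phospholipase-like gene after Atf7ip, had 11 to 69 counts. Its vitC log2 ratio was -0.54 (-1.24 to 0.07) at 4 hr, 1.90 (1.00 to 3.39) at 16 hr, 0.80 (0.02 to 1.61) at 24 hr, and 0.95 (0.40 to 1.60) at 32 hr. Its interval at 4 hr included 0, whereas that of Atf7ip did not. At 16 and 32 hr the wide intervals of Plbd1 included the Atf7ip ratio, and at 24 hr the upper bound was just below it. Rpl36a-ps3, a pseudogene before Atf7ip, had at most 2 counts, and the remaining neighbour on each side, Gm44140 and LOC108169175, was not analysed here.

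Over the 8 libraries, the 5 protein-coding genes with a mean of at least 5 CPM whose log2 CPM was most like that of Atf7ip were Cramp1l (Pearson r = 0.98), Trak2 (0.97), Rbfox2 (0.97), Tsc2 (0.97), and Nfib (0.96). Of the 10457 genes compared, 74 reached r = 0.9, and the points share library depth and lane. Cramp1l ranged from 16.3 to 31.3 CPM, Tsc2 from 41.6 to 77.0 CPM, and Rbfox2 only from 174 to 203 CPM. In the order given, the vitC log2 fold changes of the 5 genes were 0.53, 0.18, 0.12, 0.54, and 0.29. All were smaller than that of Atf7ip. Among the other members r with Atf7ip ran from -0.45 for Suv39h2 to 0.66 for Setdb1.

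SETDB1 is the methyltransferase that ATF7IP serves. Setdb1 (ENSMUSG00000015697) was at 171, 175, 157, and 152 CPM in 2i at 4, 16, 24, and 32 hr, and at 192, 173, 195, and 169 CPM with vitC. The treatments overlapped, and the vitC log2 ratios were 0.17, -0.02, 0.31, and 0.16, with counting intervals above 0 at 4, 24, and 32 hr. Its fitted vitC log2 fold change was 0.15 (SE 0.10), against 1.39 for Atf7ip.

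The other 9 genes, Setdb1 among them, had fitted vitC log2 fold changes from -0.15 for Cbx3 to 0.15 for Setdb1, against a median of -0.02 over all genes tested. All 36 of their ratios at single times, from -0.56 to 0.63, lay between the 5th and the 95th percentile of all genes at that time. In time order the medians of these 9 genes were 0.15, -0.05, 0.17, and 0.01, where those of all genes were 0.01, -0.02, -0.02, and 0.00. Fam208a was the 1 gene of the 9 with the same sign at all times, with ratios of 0.01, 0.22, 0.19, and 0.01. Its counting intervals included 0 at 4 hr (-0.06 to 0.09) and at 32 hr (-0.07 to 0.10), so the sign there is within counting error.

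Mphosph8, which encodes the chromodomain subunit of HUSH, had vitC ratios in both directions. It was at 91.1, 81.4, 110, and 124 CPM in 2i and at 75.0, 126, 145, and 97.3 CPM with vitC at 4, 16, 24, and 32 hr. The log2 ratios were -0.28 (-0.40 to -0.17), 0.63 (0.51 to 0.75), 0.39 (0.26 to 0.53), and -0.35 (-0.46 to -0.24). Thus vitC libraries were lower at the first and last times and higher between them, beyond counting error, with no replicate to set that against. Trim28 at 16 hr had a ratio of -0.56 (-0.60 to -0.52), whereas its ratios at the other times ran from -0.06 to 0.15.

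**Figure D2:**
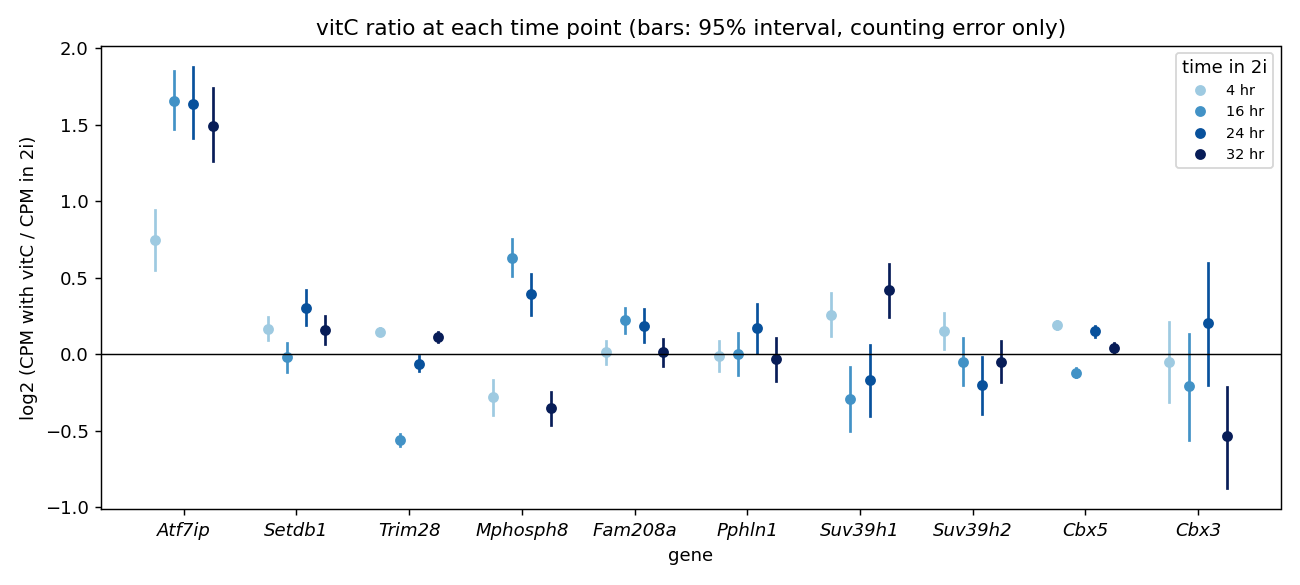
log2 ratio of CPM with vitC to CPM in 2i for each gene, with 1 point per time from 4 hr (light) to 32 hr (dark) and bars for the 95% counting interval, which holds no replicate error. The points of Atf7ip run from 0.74 to 1.65, and the 36 points of the other genes lie between -0.56 and 0.63.

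The course over time was tested in the same additive fit. Its 3 residual degrees of freedom measure how far both treatments stray from parallel courses, since there were no replicate cultures. Trim28 fell after 4 hr, Pphln1 was lower at 32 hr, and no member passed the test as a rise. From 4 to 24 hr, within lane 8, 1 of the 10 genes passed, as lower, against 20.5% of all genes tested (11.5% higher, 8.98% lower), and their median log2 fold change was -0.07, against 0.01 over all genes. From 4 to 16 hr 1 passed, as lower, where 16.4% of all genes did (9.16% higher, 7.24% lower). From 4 to 32 hr 2 passed, both lower, where 25.3% did (13.5% higher, 11.8% lower). Both cross lanes, where lane and time cannot be told apart. These 3 comparisons share the 4 hr libraries. Over all genes, 1720 were higher and 1341 lower at 24 hr than at 4 hr, but with GC content and length regressed out 1412 were higher and 1710 lower.

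TRIM28 is the scaffold that links KRAB zinc finger proteins to SETDB1. Trim28 (ENSMUSG00000005566) was at 1690, 1349, 993, and 1076 CPM in 2i at 4, 16, 24, and 32 hr. With vitC it was at 1873, 915, 952, and 1163 CPM. Both 4 hr libraries were above all 6 later libraries.

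Between 4 and 24 hr, Trim28 fell to 0.587 of its level in 2i and to 0.508 with vitC, log2 ratios of -0.77 (-0.80 to -0.74) and -0.98 (-1.02 to -0.93). The additive log2 fold change was -0.88 (SE 0.18, adjusted p = 0.0051, edgeR), and it passed under all 9 alternatives, from -0.97 to -0.87. At 16 hr it was -0.66 (adjusted p = 0.024, edgeR) and at 32 hr -0.67 (adjusted p = 0.015, edgeR). Without a treatment term the 16 hr value did not pass (adjusted p = 0.051, edgeR). In bulk RNA, fewer cells with a transcript and less of it per cell cannot be told apart. The share of counts on Lars2 was lowest in both 4 hr libraries. In 2i at 16 and 32 hr, where that share was 0.21% and 0.56%, the Trim28 log2 ratios to 4 hr were -0.32 and -0.65. The summed fibroblast markers were also lowest at 4 hr, but single markers of the sum differed. From 4 to 32 hr Col1a1 and Col1a2 were higher (log2 fold changes 1.36 and 2.14). Col3a1 did not pass (0.35), and Thy1 was lower (-1.80, adjusted p = 0.016, edgeR). Neither the part of the fibroblast markers in the fall of Trim28 nor that of the Lars2 share was tested.

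The HUSH genes took different courses. Pphln1 (ENSMUSG00000036167), which encodes periphilin, was at 112, 85.9, 85.7, and 64.2 CPM in 2i, and at 112, 86.2, 96.5, and 62.7 CPM with vitC. The treatments were close at each time, and both 32 hr libraries were the lowest. From 4 to 32 hr the log2 ratio was -0.81 (-0.93 to -0.69) in 2i and -0.83 (-0.96 to -0.70) with vitC. The additive log2 fold change was -0.82 (SE 0.13, adjusted p = 0.0012, edgeR). At 24 hr, within a lane, it was -0.30 and did not pass (adjusted p = 0.13, edgeR).

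Fam208a (ENSMUSG00000040651), the gene of TASOR, was at 204, 208, 182, and 165 CPM in 2i, and at 206, 243, 207, and 167 CPM with vitC. Both 32 hr libraries were the lowest of their treatment, with a log2 fold change from 4 to 32 hr of -0.30 (adjusted p = 0.12, edgeR). Mphosph8 (ENSMUSG00000079184) was higher at 24 hr than at 4 hr in both treatments, by log2 ratios of 0.28 (0.17 to 0.38) in 2i and 0.95 (0.81 to 1.09) with vitC. Its additive value of 0.60 (SE 0.21, adjusted p = 0.063, edgeR) did not pass. It passed under 3 of the 9 alternatives, namely DESeq2, no filter on low counts, and GC content and length regressed out.

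The SUV39H genes, which write H3K9me3 at satellite repeats, did not pass in any of the comparisons of time. Suv39h1 (ENSMUSG00000039231) was at 50.3, 43.7, 49.8, and 37.5 CPM in 2i, and at 60.3, 35.7, 44.4, and 50.2 CPM with vitC. It was highest at 4 hr in both treatments, with log2 fold changes of -0.46, -0.22, and -0.34 at 16, 24, and 32 hr (adjusted p = 0.11, 0.44, and 0.20, edgeR). In 2i the 4 and 24 hr levels were within counting error, with a log2 ratio of -0.02 (-0.17 to 0.13), against -0.44 (-0.67 to -0.22) with vitC. Suv39h2 (ENSMUSG00000026646) was the steadiest of the genes, between 71.6 and 78.6 CPM in 2i and between 68.4 and 81.4 CPM with vitC.

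Neither HP1 gene passed. Cbx5 (ENSMUSG00000009575) was at 1335, 1630, 1475, and 1276 CPM in 2i, and at 1526, 1502, 1637, and 1316 CPM with vitC, both 32 hr libraries being the lowest. Cbx3 (ENSMUSG00000029836) had 77 to 294 counts per library, at 14.3 to 16.5 CPM in 2i and 10.5 to 16.5 CPM with vitC. Setdb1 had additive log2 fold changes of -0.06, -0.05, and -0.18 at 16, 24, and 32 hr (adjusted p = 0.80, 0.83, and 0.36, edgeR). Atf7ip had 0.51, 0.49, and -0.14 (adjusted p = 0.12, 0.14, and 0.68, edgeR), averaged over both treatments.

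Between 16 and 32 hr, within lane 7, 0 of the 10 genes passed in edgeR (0.583% of all genes did, 0.335% higher and 0.248% lower) and 0 in DESeq2. At an unadjusted p-value under 0.05, which 14.3% of all genes tested reached, there were 3, all lower at 32 hr, namely Atf7ip, Fam208a, and Pphln1, with log2 fold changes of -0.65, -0.44, and -0.44 (edgeR adjusted p = 0.20, 0.17, and 0.17). By the additive values, 7 of the 10 genes were lower at 32 hr than at 16 hr, with a median of -0.14, against -0.0015 over all genes tested. Trim28 counts among the 7 at -0.0068, but its log2 ratio was -0.33 (-0.36 to -0.30) in 2i and 0.35 (0.30 to 0.39) with vitC. The treatments also differed in direction for Mphosph8 (0.61 in 2i and -0.37 with vitC) and Suv39h1 (-0.22 and 0.49).

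**Figure D3:**
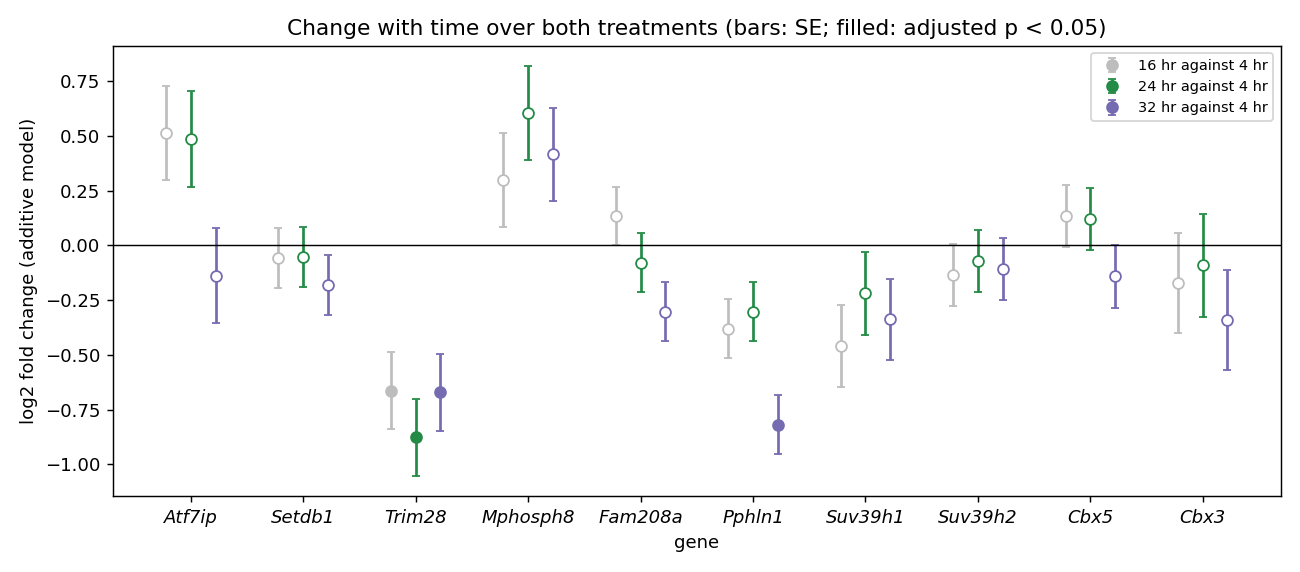
log2 fold change against 4 hr in the additive model over both treatments for each gene, at 16 hr (gray), 24 hr (green), and 32 hr (purple), with bars for the SE and filled points for an adjusted p-value under 0.05. The filled points are the 3 of Trim28, from -0.88 to -0.66, and Pphln1 at 32 hr, at -0.82.

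Some of these counts rest on sequence that other genes share. By identical stretches of 50 bases, the read length, 23.3% of the longest Fam208a transcript in GENCODE M21 is also found in other genes, 20.5% of that of Suv39h1 (all in the antisense Gm14820), 10.1% for Mphosph8 (antisense Gm16973), and 6.66% for Setdb1 (Cers2, Gm37500, and Gm4349). For Cbx3 it was 4.00%, in pseudogenes among others, for Atf7ip 0.999%, and for Trim28 0%. How such reads were counted is not given in the sources used here.

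The other genes of H3K9 methylation were examined as lists, from 4 to 24 hr, to be read against the same 11.5% higher and 8.98% lower among all genes. Of 6 genes for other H3K9 methyltransferases (Ehmt1, Ehmt2, Setdb2, Prdm2) and zinc finger partners (Wiz, Zfp644), 2 rose, 0 fell, and 4 did not pass. Their median log2 fold change was -0.04. Wiz, a zinc finger partner of the H3K9me2 writers EHMT1 and EHMT2, was at 4.60 CPM at 4 hr and 7.91 CPM at 24 hr in 2i, and at 4.55 and 18.4 CPM with vitC (log2 fold change 1.42, SE 0.38, adjusted p = 0.021, edgeR). Of the 4 methyltransferase genes, 1 passed. Prdm2, which encodes a PR-domain methyltransferase, was at 29.4 and 37.9 CPM in 2i and at 24.3 and 64.1 CPM with vitC (0.82, SE 0.26, adjusted p = 0.042, edgeR), and it did not pass with GC content and length regressed out or without a treatment term.

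Of the 11 demethylase genes, Kdm4d was too low to test, 3 of the other 10 rose, and 0 fell, with a median of 0.24. Kdm7a, a JmjC demethylase for H3K9me2 and H3K27me2, was at 16.4 and 42.6 CPM in 2i at 4 and 24 hr and at 20.2 and 35.8 CPM with vitC (log2 fold change 1.09, SE 0.21, adjusted p = 0.0041, edgeR). Kdm3b (0.64) and Kdm4a (0.55) were the other members that passed, Kdm3b not with GC content and length regressed out or without a treatment term.

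Of 20 partners of SETDB1, TRIM28, HUSH, and HP1, 3 rose, 0 fell, and 17 did not pass, with a median of 0.05. Zfp57, the KRAB zinc finger protein that brings TRIM28 to imprinted regions, was at 67.2, 87.3, 122, and 122 CPM in 2i and at 63.1, 93.7, 115, and 117 CPM with vitC. It thus rose in the same libraries in which Trim28 fell (log2 fold change at 24 hr 0.86, SE 0.14, adjusted p = 0.0013, edgeR), and it passed under all 9 alternatives. Trim24 and Trim33, relatives of Trim28, had log2 fold changes of 0.84 and 0.57 (adjusted p = 0.0027 and 0.018, edgeR). Trim24 did not pass without a treatment term, nor did Trim33, which also did not with GC content and length regressed out. Between 16 and 32 hr none of the tested genes of these 3 lists passed in edgeR. For vitC 0 of them were among the 25 genes called in edgeR. List medians were 0.10, 0.00, and 0.09 for methyltransferases with their zinc finger partners, demethylases, and partners. In that order 4 of 6, 5 of 10, and 14 of 20 genes were above 0. Values ran from -0.13 to 0.60, from -0.23 to 0.46, and from -0.08 to 0.60. Resf1 (a partner) and Phf8 (a demethylase gene) are named after their values were seen. Their vitC log2 ratios in time order were 0.54, 0.48, 0.88, and 0.24, and 0.36, 0.50, 0.75, and 0.23, each counting interval above 0. As for Atf7ip and 1.34% of all genes tested, their vitC libraries were all above their 2i libraries. The margins were narrow, 195.4 against 194.7 CPM for Resf1 and 30.6 against 28.6 CPM for Phf8.

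Across lanes, some genes of these lists fell. At 16 hr against 4 hr, 2 of 20 partners were higher and 1 was lower, where 9.16% and 7.24% of all genes were. At 32 hr 3 were higher and 2 lower, where 13.5% and 11.8% of all genes were. Zfp57 and Trim24 were higher at both times, and Chaf1b at 32 hr (log2 fold change 0.49, adjusted p = 0.020, edgeR). Chaf1b and the genes that fell are named after their values were seen. Daxx, which encodes an H3.3 chaperone that works with ATRX, was lower at 16 hr (log2 fold change -0.57, adjusted p = 0.014, edgeR) and at 32 hr (-0.43, adjusted p = 0.031, edgeR). Morc2a, which encodes an ATPase that HUSH recruits, was lower at 32 hr (-0.69, adjusted p = 0.0057, edgeR), as was Zfp644 (-0.43, adjusted p = 0.037, edgeR). Wiz was higher at 32 hr too, as were 3 of the 10 demethylase genes tested, Kdm7a, Kdm3b, and Kdm4a.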

How the data were processed

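The authors depleted ribosomal RNA, prepared unstranded TruSeq libraries, and sequenced 50 bp single-end reads. According to the submitters' processing notes, reads were aligned with GSNAP and counted with HTSeq, with NCBIM37/mm9 as the build. The deposited values are raw read counts per Ensembl gene, without normalization. The annotation, the strand setting, and the handling of multimapping reads are not given in the sources used here. Symbols, lengths, GC content, and overlaps came from GENCODE M21 (32604 of 37263 identifiers), which is on another build. Lengths, overlaps, and neighbours were therefore joined to the counts by gene identifier or symbol, and no reads were recounted by coordinate. Promoters came from RefSeq (GRCm38.p6).

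Conditions came from the labels, and the lane from the file names. Tests used edgeR 4.0.16 in R 4.3.3 (TMM, quasi-likelihood, 14931 genes, threshold 0.05), with SEs derived from the quasi-likelihood F value. The vitC and slope fits and that of 24 hr against 4 hr were tested on simulated data. Ratios carry Clopper-Pearson intervals at 95%. The floor of 3 counts was 0.158 to 0.643 CPM. Both cover the error of counting alone, as PCR copies of a molecule could not be removed. No libraries were identical (0 pairs). DESeq2 1.42.0 was run as an alternative, as were other scalings, other filters, a correction for GC content and length, thinning to 4753528 counts, other model terms, and the omission of each time point.

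The genes, the lists of related genes, and the alternatives were chosen with earlier results of these data known. All 10 members are named. In a list, genes past the threshold from 4 to 24 hr or from 16 to 32 hr are named, at most 4 per list. The neighbours are the 2 annotated genes on each side of Atf7ip. Of the 3 time comparisons with 4 hr, those at 16 and 32 hr cross lanes.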

Additional observations from a re-analysis of the deposited data

How the results depend on the processing

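Atf7ip was chosen by the vitC contrast in these libraries, so the alternatives describe its value and do not test it. Its vitC log2 fold change kept its direction under every alternative run, as its ratios were above 0 at all times. Atf7ip was not among the genes called in 2 of 13 alternatives, without the 32 hr pair and without the time block. The fold change moved by more than its standard error with GC content and length regressed out (1.22), without the 4 hr pair (1.61), and within lane 8 (1.19) or lane 7 (1.57). The number of genes called for vitC, 25 (16 higher, 9 lower), depended on the setting. It was 299 with DESeq2 (233 higher, 66 lower), 690 without a filter on low counts (473 and 217), 13 with at least 5 CPM in 2 libraries, 60 with totals that leave out Lars2 and its companions, 13 with GC content and length regressed out, and 107 after thinning (77 and 30). It was 399 without the 4 hr pair, 13 without the 16 hr pair, 11 without the 24 hr pair, 0 without the 32 hr pair (1760 at an unadjusted p-value under 0.05, edgeR), and 0 without the time block (739). For the change of the vitC ratio with hours, DESeq2 called 1 gene where edgeR called 0.

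Without a treatment term 1889 genes passed for 24 hr against 4 hr, where 3061 did with it, and 1289 for 16 hr, where 2448 did. For 32 hr against 16 hr, 87 genes passed, and 239 did with DESeq2, 589 without a filter, 55 after thinning, and 11 without a treatment term. With GC content and length regressed out, the calls at 16 hr against 4 hr were 1136 higher and 1423 lower, from 1367 and 1081, and those at 32 hr against 16 hr were 57 and 64, from 50 and 37. Among the 10 genes, calls of time changed for Trim28 at 16 hr, for Mphosph8 at 24 hr, for Mphosph8 at 32 hr without a filter (adjusted p = 0.042, edgeR), and for Atf7ip between 16 and 32 hr without a filter (0.041). No member's call reversed, though the uncalled vitC values of Trim28 (-0.09) and Mphosph8 (0.10) were 0.07 and -0.08 without the 16 hr pair. The cause was not tested for any of these differences. Counting error was largest for Cbx3, whose vitC intervals were the widest of the 10 genes at each time.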
